A study of Mus musculus with 8 samples.

Results

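The comparison described here set CT26 cultures grown for 48 h in medium with 10% serum containing mLJZD against CT26 cultures grown for 48 h in medium with 10% control serum. CT26 is a mouse colorectal carcinoma cell line. The comparison holds the 4 culture libraries of a series of 8, with 2 libraries per serum, chosen by their labels and not by any measured value. Both culture groups thus shared the cell line, the amount of serum and the time, and differed in the serum. The labels do not expand mLJZD. Whether replicates were grown separately is not stated either, and p-values here thus rest on the spread of 2 libraries per serum, which may be technical in origin. The other 4 libraries came from transplanted tumours and are used below only for the slope of the length trend. The title of the series names nobiletin, a citrus flavonoid, with the checkpoint kinase CHEK1, histone H3 acetylation and the centromere protein CENPM; none of these cultures is labelled with nobiletin, and the libraries measured RNA only.

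CT26 grows as a fast-dividing carcinoma line and keeps an interferon response and class I antigen presentation. Growth factors in serum act on such cells through receptor kinases, RAS and ERK, and the ERK pathway switches on its own phosphatases and inhibitors. Interferon acts through transcription factors on genes for antiviral effectors, many of which hold an interferon-stimulated response element in the promoter.

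Control cultures held 23426845 and 22196014 counts, and mLJZD cultures 20439449 and 29363861. The 100 most abundant genes took 21.2% and 20.7% of the counts with control serum and 16.9% and 16.8% with mLJZD serum. Protein-coding genes whose longest transcript is under 1000 bases took 7.64% and 6.89% with control serum and 3.99% and 4.33% with mLJZD serum. Those of 8000 bases and over took 3.57% and 3.79% with control serum and 7.21% and 7.29% with mLJZD serum. The 2 groups did not overlap in any of these shares. Processed pseudogenes, which carry near copies of short abundant messages, took 2.57% and 2.49% against 1.76% and 1.83%. Mitochondrially encoded messages took 0.986% and 1.02% with control serum, 0.567% in mLJZD replicate 1 and 1.05% in mLJZD replicate 2, so these 2 mLJZD libraries stood apart from each other.

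The change under mLJZD serum ran along transcript length over the whole range of protein-coding genes. Among 454 tested protein-coding genes with a longest annotated transcript under 1000 bases the median log2 fold change was -0.76, and 76.0% were called lower and 1.98% higher. Among 632 genes of 8000 bases and over the median was 1.00, and 82.9% were called higher and 2.53% lower. A call is an adjusted p under 0.05 in edgeR's quasi-likelihood test with Benjamini-Hochberg adjustment over all genes tested. The medians of the classes between them (1000 to 2000, 2000 to 3000, 3000 to 5000 and 5000 to 8000 bases) were -0.48, -0.21, 0.12 and 0.58 in order of length. Each of the 4 pairs of 1 mLJZD and 1 control library gave the same order, from medians between -0.86 and -0.67 in the shortest class to medians between 0.93 and 1.05 in the longest. Within a group the class medians lay closer: control replicate 2 lay 0.16 below control replicate 1 in the shortest class, and the 2 mLJZD libraries differed by at most 0.04 in any class.

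**Figure D1:**
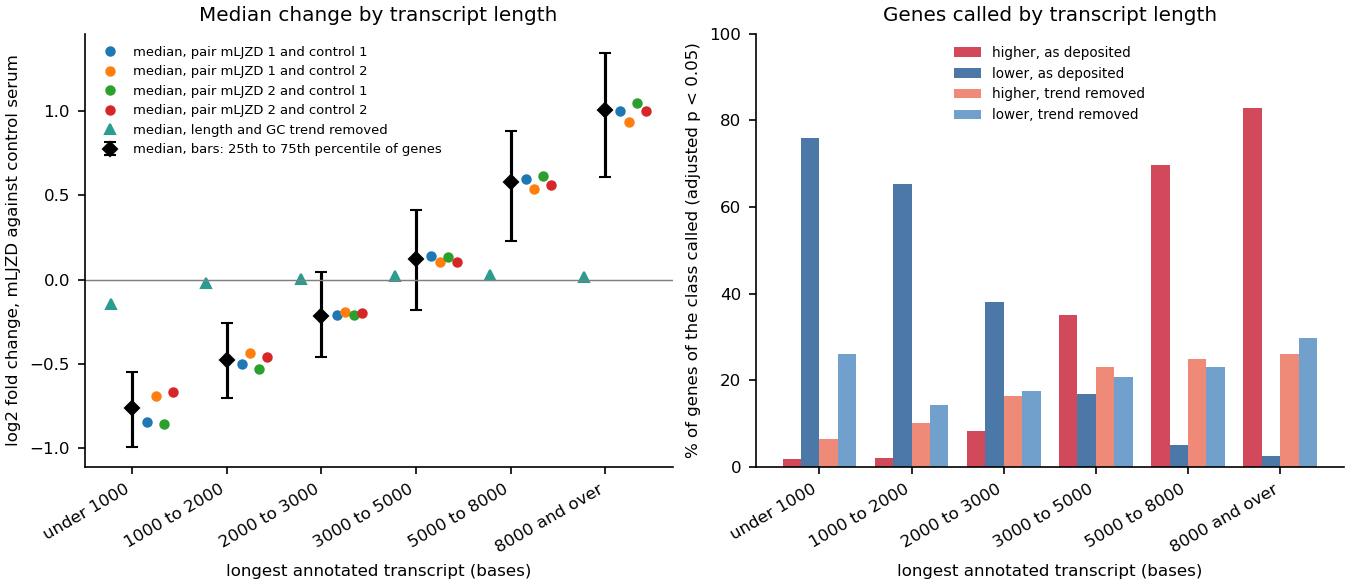
Median log2 fold change (left panel, with the 25th to 75th percentile over genes as bars) and percent of genes called (right panel, from 0 to 100) in 6 classes of longest annotated transcript, for protein-coding genes. Diamonds show the 4-library fit, coloured points the 4 pairs of single libraries, and triangles the medians after the length and GC trend was removed; diamonds climb from -0.76 to 1.00 while triangles lie between -0.15 and 0.03.

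Per doubling of length the log2 fold change of the cultures rose by 0.47, with slopes of the single libraries around the mean of all 4 of -0.26 and -0.20 with control serum and 0.23 and 0.24 with mLJZD serum. The corresponding slope between mLJZD and saline tumours was -0.03, and the difference between the 2 contrasts was not tested. The length of the longest transcript accounted for 41.2% of the variance of the fold change over 11180 protein-coding genes. The length of the transcript that RefSeq lists for the gene accounted for 43.4%, and the median length over a gene's transcripts for 14.95%. RefSeq length and GC content together accounted for 50.1%, and mean expression for 1.12%. These shares are across genes, which share libraries and are not replicates. The trend ran within genes of low and of high GC content: class medians went from -0.50 to 1.00 where GC content was at most 46.4% and from -0.87 to 0.76 where it was above 52.9%. It ran along the coding part as well as the untranslated part. Genes with under 1000 coding bases and under 500 bases after the stop codon had a median of -0.65, and those with the same coding length and 3000 bases or more after the stop codon a median of 0.12. Genes with 4000 or more coding bases and 3000 or more after the stop codon reached 1.12. The trend followed the groups, so a length effect of the serum and one of the making of the libraries cannot be told apart.

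Each gene was therefore read in 3 fits. In the counts as deposited 3825 genes were called higher (28.8%) and 3540 lower (26.6%) of 13299 tested, 55.4% in all. With the trend in longest-transcript length and GC removed, 2566 were called higher (19.6%) and 2356 lower (18%) of 13103 with a known length, 37.6% in all, and 306 genes were called in opposite directions in these 2 fits. The longest annotated transcript is often not the main one of a gene, so the last fit removed the trend in the length and GC of the RefSeq-matched transcript. It called 2103 higher (16%) and 1900 lower (14.5%), 30.6% in all. In all 3 fits 1467 genes were called higher, 11.2% of genes, and 1004 lower, 7.66%, together 18.9%. Of these 363 and 116 differed at least 2-fold after longest-transcript removal. Below, "rose" and "fell" are used only of genes called in the same direction in all 3 fits. Levels are given in CPM, counts scaled to the library total, with control replicates 1 and 2 before mLJZD replicates 1 and 2. CPM still hold the length trend, since it was removed only in the fits. Where 3 fold changes stand in a row, they are those of the 3 fits in the order above. Since the counts as deposited must agree, a long gene could enter as lower and a short gene as higher only against the trend: the share that fell was 18.6% among protein-coding genes with a RefSeq transcript under 1000 bases and 1.81% at 8000 bases and over, and the share that rose was 1.93% and 22.3%.

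**Figure D2:**
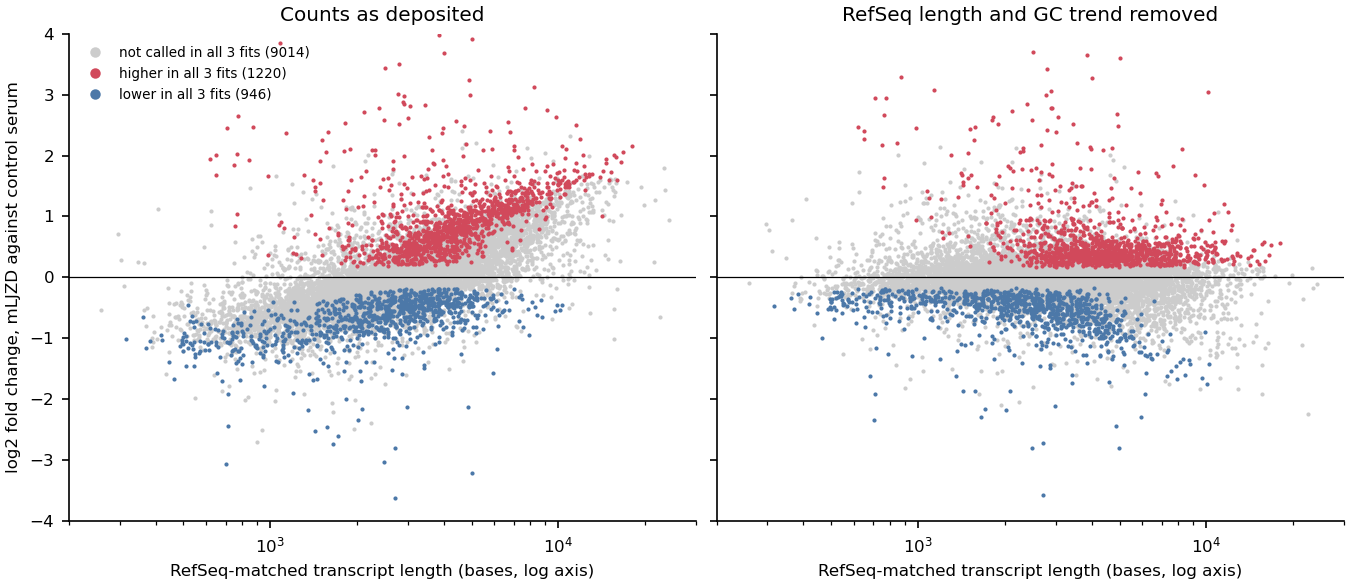
Log2 fold change of each protein-coding gene against the length of its RefSeq-matched transcript (log axis), as deposited on the left and with the RefSeq length and GC trend removed on the right; 7 of 11180 genes lie outside the axes. Red and blue mark the 1220 protein-coding genes higher and the 946 lower in all 3 fits, and the slope of the cloud on the left is flat on the right.

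The genes of the title differed in their response. Cenpm, a subunit of the constitutive centromere network, stood at 50.7 and 52.3 CPM with control serum and 24.4 and 23.4 CPM with mLJZD serum, with no overlap. Its log2 fold change was -1.17 as deposited, -0.48 after longest-transcript removal and -0.31 (SE 0.09, edgeR adjusted p = 0.0201) after RefSeq-length removal, so the size depended on the fit while the direction did not. That call was lost without control replicate 2 and without mLJZD replicate 2. Chek1, the kinase that ATR activates at stalled replication forks, stood at 26.8 and 25.8 CPM with control serum and 29.8 and 30.6 CPM with mLJZD serum and was called in none of the fits (log2 fold changes of 0.15, -0.09 and -0.15). Of 26 listed writers and erasers of histone acetylation 5 rose and 1 fell, beside 11.2% of all genes that rose and 7.66% that fell. The median RefSeq transcript of that list has 4106 bases, and of protein-coding genes of 3000 to 5000 bases 16% rose and 8.07% fell. Ep300, an acetyltransferase and coactivator, stood at 27.3 and 29.5 CPM with control serum and 102 and 114 CPM with mLJZD serum, a log2 fold change of 1.87 as deposited and 0.78 (edgeR adjusted p = 1.31e-05) after RefSeq-length removal. Kat6a, an H3 acetyltransferase, rose by 0.71 on that last scale, from 27 and 28.8 to 99.3 and 107 CPM. The smaller acetyltransferase genes Kat2a and Kat7 rose by 0.41 and 0.32, and the deacetylase gene Hdac7 fell, by a small margin (log2 fold change -0.18). The call for Kat2a was lost without control replicate 1, and that for Hdac7 when any 1 of the 4 libraries was left out.

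The 12 largest rises by longest-transcript removal were ranked among genes called in the first 2 fits, with an established symbol. They also had to have at least 5 CPM in the higher group and no overlap. These rises were held mostly by genes with a few CPM with control serum. Klhl11, an adaptor of cullin ubiquitin ligases, was measured at 2.22 and 2.84 CPM with control serum and 18.5 and 17.8 CPM with mLJZD serum. It had a log2 fold change of 2.79 (SE 0.18) as deposited, 2.97 (SE 0.18) after longest-transcript removal and 2.85 (SE 0.17, edgeR adjusted p = 2.21e-07) after RefSeq-length removal. Atp7a, the copper-exporting ATPase, rose from 2.35 and 2.61 to 24.6 and 24.4 CPM, with a log2 fold change of 3.24 (SE 0.16) as deposited, 2.80 (SE 0.16) after longest-transcript removal and 2.68 (SE 0.16, edgeR adjusted p = 1.86e-07) after RefSeq-length removal. Pdpr, the regulatory subunit of pyruvate dehydrogenase phosphatase, rose from 3.76 and 5.72 to 38.3 and 40.5 CPM (2.48 after RefSeq-length removal). In these 3 genes the mLJZD libraries lay close to each other, while their separation from the control libraries was a condition of the choice. Sycp1, a protein of the meiotic synaptonemal complex, rose from 0.896 and 0.676 to 5.63 and 6.13 CPM, and Fbxo48, an F-box protein, from 0.768 and 0.766 to 5.63 and 4.94 CPM. Farp2 rose from 2.94 and 4.14 to 19.6 and 18.6 CPM. Lrch3, Lancl3 and Zc3h11a complete the protein-coding genes of the group without close copies, with log2 fold changes of 2.78, 2.11 and 2.10 after RefSeq-length removal. Slfn3, a Schlafen gene with close paralogs, stood at 3.84 and 6.49 against 31.2 and 30.9 CPM, and reads may be split among the family. Rbpj-ps3, a pseudogene of the Notch factor Rbpj, stood at 44.4 and 51.4 against 182 and 193 CPM and may hold reads of its parent. Kcnq1ot1, an imprinted nuclear RNA antisense to Kcnq1, stood at 1.2 and 0.766 against 11.7 and 10.5 CPM. Because the strand setting of the counting is not given, its reads and those of Kcnq1 cannot be told apart.

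The 12 largest falls by longest-transcript removal were ranked among genes with an established symbol, at least 5 CPM with control serum and no overlap. They were mostly smaller in the counts as deposited, and several came from genes with a short coding part and a long annotated transcript. Ebpl, a relative of the sterol isomerase Ebp, has 618 coding bases in a transcript of 10092 bases and stood at 15.7 and 14 CPM with control serum and 10.9 and 10.3 CPM with mLJZD serum. It had a log2 fold change of -0.54 (SE 0.15) as deposited, -1.69 (SE 0.15) after longest-transcript removal and -1.75 (SE 0.15, edgeR adjusted p = 2.77e-06) after RefSeq-length removal, and its call in all 3 fits was lost without control replicate 1. Chic2, with 495 coding bases in 9699, stood at 57.7 and 54.6 against 41.5 and 38.3 CPM (-0.55, -1.57 and -1.65 in the 3 fits). Mrpl17 of the mitochondrial ribosome, with 528 coding bases in 7300, stood at 129 and 121 against 81 and 76.8 CPM (-0.72, -1.54 and -1.62). Dnajc15, a mitochondrial co-chaperone with 447 coding bases in 6193, stood at 46.8 and 44 against 24.6 and 29.3 CPM (-0.80, -1.48 and -1.57). In these 4 genes, chosen to have no overlap, the change was larger after the trend was removed than before. Which transcript end CT26 used was not measured. Camta1, a calmodulin-binding transcription activator (34.4 and 34 against 23.5 and 23.1 CPM), and Mtus2, a microtubule-associated protein (11.8 and 9.46 against 5.09 and 7.36 CPM), had log2 fold changes of -1.61 and -1.53 after RefSeq-length removal. Prrc1 and Fam53a, whose RefSeq transcripts are shorter than their longest ones, gave -0.32, -1.39 and -0.87 for Prrc1 and -0.70, -1.59 and -0.23 for Fam53a. Fam53a lost its call when any 1 library was left out. Atp5l and Snrpc, with RefSeq transcripts of 544 and 758 bases against longest ones of 6310 and 6107, went from -1.49 and -1.46 after longest-transcript removal to -0.27 and -0.05 after RefSeq-length removal, and Snrpc was no longer called. The call for Atp5l in all 3 fits was lost without control replicate 1 and without mLJZD replicate 2. The falls of Cdc42ep2, an effector of the GTPase Cdc42, and of Fabp4, a fatty acid carrier, were there before any correction. Cdc42ep2 stood at 12.2 and 9.42 against 4.65 and 3.71 CPM and Fabp4 at 10.8 and 10.6 against 5.58 and 4.84 CPM, log2 fold changes of -1.44 and -1.10 as deposited.

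Genes that moved against the length trend were separated from it already in the counts as deposited. Of 2244 protein-coding genes whose longest transcript is under 2000 bases, 1516 were called lower as deposited and 45 higher. All 45 were called higher in the other 2 fits. Removing a trend that is negative for short genes raises their fold changes, so this agreement was nearly fixed by the choice of genes. Of the 45, 20 had at least 5 CPM in the higher group and no overlap between the groups. Among them were genes of lipid storage, Plin2, the coat protein of lipid droplets, and Hilpda, an inhibitor of the lipase that empties them. Plin2 stood at 634 and 682 CPM with control serum and 957 and 878 CPM with mLJZD serum, with a log2 fold change of 0.42 (SE 0.08) as deposited, 0.78 (SE 0.07) after longest-transcript removal and 0.70 (SE 0.06, edgeR adjusted p = 5.76e-06) after RefSeq-length removal. Hilpda stood at 104 and 95.7 against 130 and 139 CPM, log2 fold changes of 0.37, 0.96 and 0.94 in the 3 fits. Zfp809, a KRAB zinc finger protein that silences retroviral sequences, stood at 13.2 and 15.2 against 36.2 and 43 CPM (1.43, 1.63 and 1.67). Fv1, a restriction factor against retroviruses, stood at 1.75 and 3.11 against 4.99 and 5.28 CPM and lost its call without control replicate 1. The clustered zinc finger genes Zfp971 and Zfp982 stood at 1.71 and 2.52 against 6.21 and 7.01 CPM and 2.18 and 3.29 against 9.2 and 7.42 CPM. Serpinb9c and Serpinb9e, of a cluster of serpin genes related to granzyme inhibitors, stood at 2.94 and 3.02 against 8.9 and 9.88 CPM and 4.78 and 4.82 against 8.37 and 9.64 CPM, and reads may be split within both clusters. The epithelial keratin Krt20, a marker of differentiated gut epithelium, rose from 146 and 141 to 206 and 208 CPM (0.47, 0.75 and 0.67), and the annexin Anxa8 from 18.3 and 17.6 to 25.3 and 31.7 CPM. Ifi211, an interferon-inducible gene of the HIN-200 family, rose from 7.04 and 4.96 to 15.4 and 15 CPM.

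Among long genes few went the other way. Of 1387 genes whose shortest RefSeq-matched coding part is at least 3000 bases, 1061 were called higher as deposited and 34 lower, and 22 of the 34 fell in all 3 fits. Of these, 19 had at least 5 CPM and no overlap. They held 3 fibrillar or fibril-associated collagen genes. The whole list of collagens and matrix genes did not fall as a set. Of its 24 tested members 3 rose and 3 fell, beside 11.2% and 7.66% of all genes, and 11 were called higher and 3 lower as deposited. With 1 library left out between 1 and 5 rose and between 1 and 4 fell. Col3a1 fell from 19.1 and 20.9 to 14 and 13 CPM, with a log2 fold change of -0.63 (SE 0.13) as deposited, -1.03 (SE 0.12) after longest-transcript removal and -1.14 (SE 0.12, edgeR adjusted p = 2.01e-05) after RefSeq-length removal. Col1a1 stood at 350 and 380 against 342 and 261 CPM, and mLJZD replicate 1 lay close to the control libraries. The call was lost without mLJZD replicate 2 and under the DESeq2 Wald test. Col16a1 stood at 148 and 147 against 132 and 110 CPM, with its call lost without control replicate 1 and without mLJZD replicate 2. The set also held both genes of the SREBP factors that drive lipid synthesis, Srebf1 (72.2 and 71.6 against 59 and 52 CPM) and Srebf2 (148 and 166 against 143 and 137 CPM). The call for Srebf2 was lost without control replicate 2 and without mLJZD replicate 2. Slit3, a guidance ligand, stood at 8.15 and 8.61 against 5.87 and 5.14 CPM, and Ipo4, a nuclear import receptor, at 113 and 123 against 93 and 85.5 CPM. Hr, a corepressor of nuclear receptors, fell from 7.77 and 8.83 to 4.35 and 5.18 CPM.

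**Figure D3:**
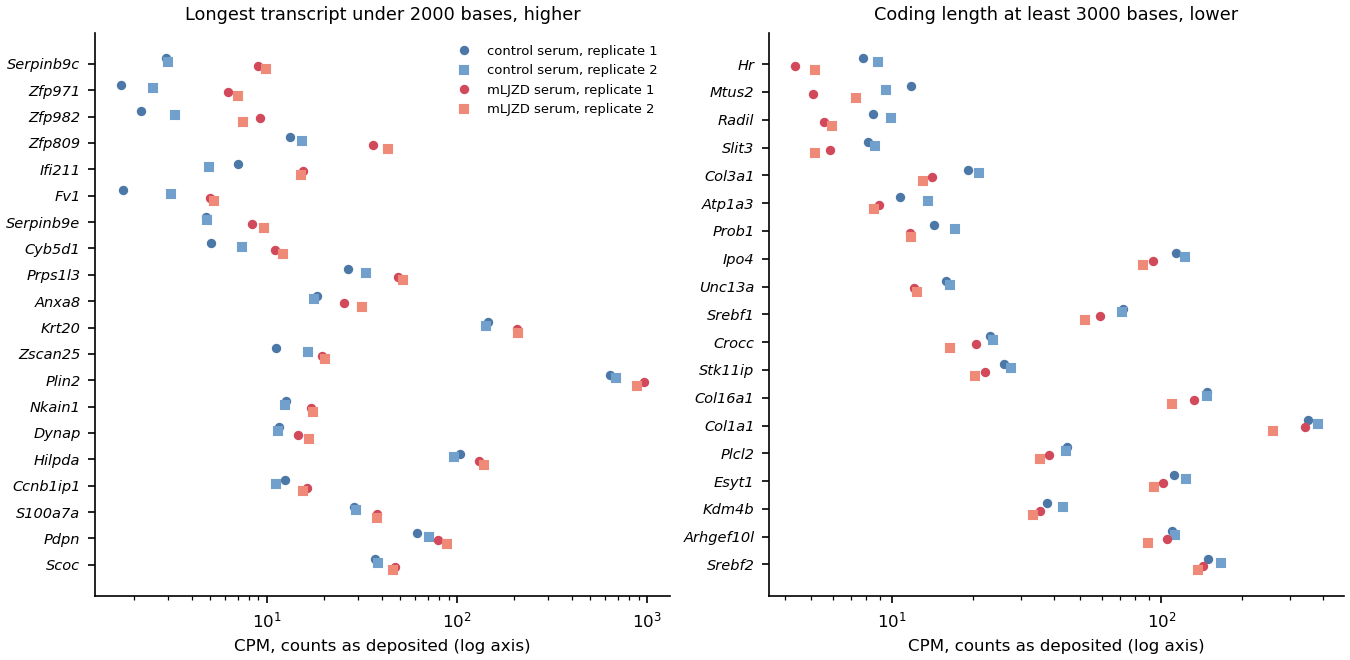
CPM per library (log axis, counts as deposited) of the 20 genes with a longest transcript under 2000 bases that rose and of the 19 genes with at least 3000 coding bases that fell, in the order of their change. Circles and squares are replicates 1 and 2 and colours the 2 sera. The genes were chosen to have no overlap between the groups, and the 2 libraries of Col1a1 with mLJZD serum lie far apart.

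In the list of interferon-response genes 15 of 39 tested members rose with mLJZD serum and 0 fell, beside 11.2% and 7.66% of all genes, and with 1 library left out between 9 (without mLJZD replicate 2) and 12 rose and 0 fell. Before removal 23 were called higher and 5 lower, and the median log2 fold change of the list was 0.50 as deposited, 0.39 after longest-transcript removal and 0.32 after RefSeq-length removal, beside -0.01, 0.02 and 0.01 for all tested genes. Cxcl10, a chemokine that draws T cells, stood at 5.98 and 5.14 CPM with control serum and 10.3 and 11.5 CPM with mLJZD serum, with a log2 fold change of 0.92 (SE 0.18) as deposited, 1.07 (SE 0.17) after longest-transcript removal and 1.30 (SE 0.17, edgeR adjusted p = 7.50e-05) after RefSeq-length removal. Rsad2, which makes a chain-terminating nucleotide against viruses, stood at 6.53 and 6.98 against 16.5 and 15 CPM (1.16, 0.86 and 0.81 in the 3 fits). Ifit1, a sensor of uncapped viral RNA, stood at 11.1 and 10.6 against 19.6 and 19.1 CPM (0.77, 0.79 and 0.66). The guanylate-binding proteins Gbp7, Gbp2 and Gbp3, whose genes form a cluster of near relatives, gave 0.81, 0.67 and 0.45 after RefSeq-length removal. Eif2ak2, the double-stranded RNA kinase PKR, rose from 48.9 and 48.6 to 108 and 111 CPM (1.11, 0.78 and 0.65). Rnf213, a giant ubiquitin ligase, rose from 42.5 and 42.6 to 180 and 188 CPM, and its log2 fold change of 2.06 as deposited was 0.54 after RefSeq-length removal. In all 8 of these genes both mLJZD libraries lay above both control libraries, which for genes already called gives no further support. The call for Gbp2 was lost when any 1 of the 4 libraries was left out, and that for Gbp3 without control replicate 1 and without mLJZD replicate 2.

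Other members of the list differed from these. Stat2, a transcription factor of the pathway, rose, from 21.3 and 21 to 34.4 and 35.7 CPM, a call lost without control replicate 2 and without mLJZD replicate 2. Irf1, another, stood at 25.7 and 25.8 against 19.9 and 17.6 CPM (-0.52, -0.19 and -0.32). The short gene Isg15, a ubiquitin-like modifier, stood at 41.3 and 34.8 against 36.7 and 35 CPM, with overlap as deposited and a log2 fold change of 0.54 (edgeR adjusted p = 0.000658) after RefSeq-length removal. Bst2, an antiviral tether, stood at 327 and 298 against 185 and 181 CPM and was lower as deposited (-0.83) and near 0 after removal (-0.06).

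The interferon-stimulated response element was looked for as the letters GAAANNGAAA, on both strands, in the 250 bases before the start site that RefSeq gives, with the sequences of the build GRCm38.p6. It was found in 978 of 32851 promoters (2.98%) and in 3.23% of 9315 tested genes with a promoter in that table. Of the interferon list 15 of 31 tested members with a promoter held it (48.4%), 7 of the 14 that rose and 8 of the 17 others. Among all genes that rose it stood in 42 of 1025 (4.1%). A match is a description of the letters and not a site shown to be used. The windows of 5 of the genes with values above are shown with each match in capitals, in the direction of transcription, so that the element of the opposite strand reads TTTCNNTTTC. Ifit1 held 2 matches, which began 104 and 85 bases before the start site. The other 4 held 1 each, 120 bases before it in Rsad2, 213 in Cxcl10, 59 in Gbp2 and 53 in Gbp7.
Ifit1 (chr19:34640740-34640839, plus strand): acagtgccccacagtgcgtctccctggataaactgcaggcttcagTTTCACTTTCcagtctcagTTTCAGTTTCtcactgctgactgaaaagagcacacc
Rsad2 (chr12:26456518-26456617, minus strand): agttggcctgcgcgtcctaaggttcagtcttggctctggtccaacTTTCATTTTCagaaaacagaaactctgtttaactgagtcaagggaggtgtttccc
Cxcl10 (chr5:92349048-92349139, minus strand): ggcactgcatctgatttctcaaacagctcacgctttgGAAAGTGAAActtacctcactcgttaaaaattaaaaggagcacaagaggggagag
Gbp2 (chr3:142620559-142620658, plus strand): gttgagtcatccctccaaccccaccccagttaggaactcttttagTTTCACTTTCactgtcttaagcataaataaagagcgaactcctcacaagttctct
Gbp7 (chr3:142530238-142530335, plus strand): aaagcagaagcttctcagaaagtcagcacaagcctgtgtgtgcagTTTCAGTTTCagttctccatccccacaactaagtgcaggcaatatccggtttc

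Antigen presentation, which interferon also governs, was lower in each member called in all 3 fits, though 2 were called higher and 14 lower as deposited. Of 19 tested members 0 rose and 6 fell, beside 11.2% and 7.66% of all genes. The list median was -0.56 as deposited and -0.18 after RefSeq-length removal. B2m, the light chain of class I molecules, stood at 655 and 602 CPM with control serum and 403 and 431 CPM with mLJZD serum, with a log2 fold change of -0.65 (SE 0.08) as deposited, -0.40 (SE 0.06) after longest-transcript removal and -0.35 (SE 0.06, edgeR adjusted p = 0.00072) after RefSeq-length removal. The class I heavy chain H2-D1 stood at 808 and 809 against 561 and 520 CPM (-0.64, -0.22 and -0.29), and related class I genes can share its reads. Tap2, one subunit of the peptide transporter, stood at 35.7 and 41 against 27.9 and 22.2 CPM (-0.68, -0.53 and -0.61) and Tap1, the other, at 27.3 and 26.6 against 20.6 and 19.1 CPM (-0.50, -0.47 and -0.33). The immunoproteasome subunit Psmb9 fell from 2.82 and 2.3 to 0.636 and 0.545 CPM, and Cd74, the invariant chain of class II molecules, from 3.29 and 3.47 to 1.08 and 1.09 CPM. The groups did not overlap in any of these 6 genes, which for genes already called gives no further support. The count rested on single libraries: with 1 library left out between 2 (without control replicate 1) and 5 members fell, and 3 fell without control replicate 2 and without mLJZD replicate 2. The call for Psmb9 was lost without control replicate 1 and without mLJZD replicate 2, that for H2-D1 without either control library, and those for Tap1 and Cd74 when any 1 of the 4 libraries was left out.

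**Figure D4:**
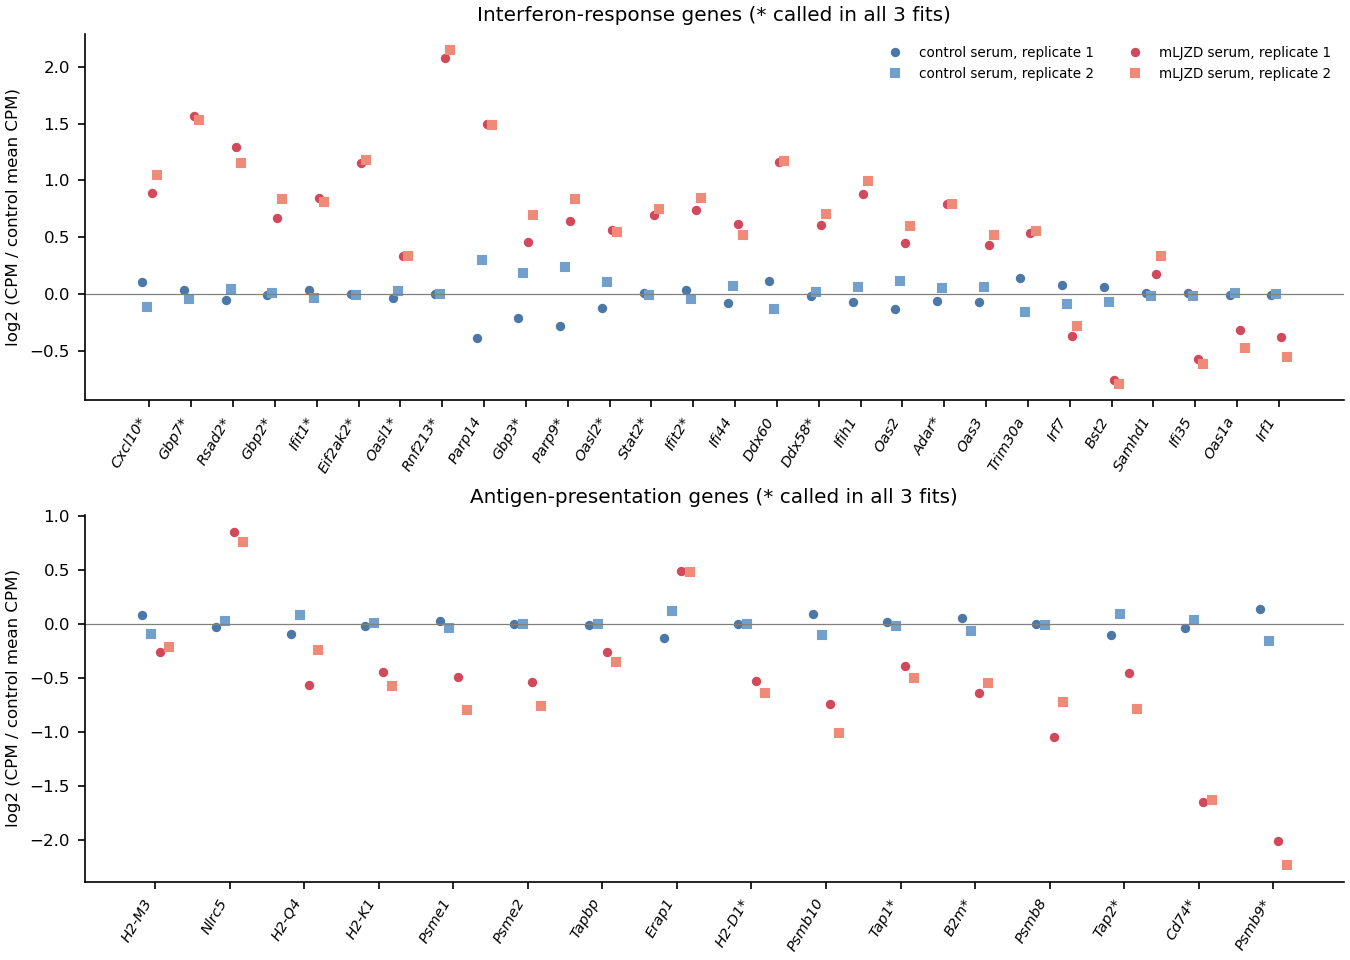
Log2 ratio of CPM, counts as deposited, to the mean of the 2 control libraries for the members called as deposited of the interferon list (upper panel, 23 higher and 5 lower) and of the antigen-presentation list (lower panel, 2 higher and 14 lower), in the order of the change after RefSeq-length removal. Points are single libraries and a star marks a call in all 3 fits; starred interferon genes lie above 0 and starred antigen-presentation genes below it in both mLJZD libraries.

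Feedback genes of the RAS and ERK pathway rose in 7 of 21 cases and fell in 2, beside 11.2% of all genes that rose and 7.66% that fell. The ERK phosphatases Dusp4 and Dusp5 stood at 109 and 108 CPM with control serum and 202 and 182 CPM with mLJZD serum and at 43.5 and 41.2 against 55.4 and 59.9 CPM respectively, with log2 fold changes of 0.77, 1.02 and 0.94 and of 0.39, 0.73 and 0.66 in the 3 fits. Errfi1, an inhibitor of the EGF receptor, rose from 120 and 128 to 210 and 224 CPM, and Spred2, an inhibitor of RAF activation, from 39.3 and 39 to 72.7 and 75.8 CPM. Cyclin D1, encoded by Ccnd1, and the receptor Epha2 rose by 0.34 and 0.28 after RefSeq-length removal. The 2 that fell were Etv4, an ETS factor downstream of ERK (160 and 163 against 107 and 104 CPM), and Hras itself (163 and 157 against 108 and 104 CPM). Calls were lost for Epha2 and Etv4 without control replicate 2 and for Hras without control replicate 1, so that 1 member fell without either control library. The list median was 0.20 as deposited and 0.07 after RefSeq-length removal, and most members were not called in all 3 fits.

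Targets and partners of YAP and TGF-beta rose in 7 of 23 cases and fell in 1, beside 11.2% and 7.66% of all genes. The median RefSeq transcript of the list has 4171 bases, and 16% of protein-coding genes of 3000 to 5000 bases rose. Inhba, the subunit of activin A, stood at 56 and 56.8 CPM with control serum and 141 and 141 CPM with mLJZD serum, with a log2 fold change of 1.27 (SE 0.08) as deposited, 0.58 (SE 0.07) after longest-transcript removal and 1.67 (SE 0.07, edgeR adjusted p = 1.23e-08) after RefSeq-length removal. Thbs1, a matrix protein that activates TGF-beta, rose from 3.71 and 3.6 to 10.8 and 13.4 CPM, and Ccn2, a matricellular target of YAP, from 192 and 167 to 252 and 237 CPM. Tead4, the DNA-binding partner of YAP, rose from 33.7 and 34.1 to 44.8 and 49.9 CPM. Tgfbi fell, at under 1 CPM in each library (0.64 and 0.496 against 0.0979 and 0.0681 CPM), and its call was lost when any 1 library was left out. Of 22 tested genes of the adhesion list 5 rose and 4 fell (3 rose without control replicate 2 or without mLJZD replicate 2), beside the same shares of all genes. Itga6, an integrin that binds laminin, rose from 119 and 134 to 275 and 275 CPM (1.07, 0.82 and 0.68). Fn1, fibronectin, rose from 530 and 626 to 1493 and 1651 CPM (1.39, 0.59 and 0.60). Lgals1, galectin 1, fell from 4025 and 3680 to 1135 and 1851 CPM, with a spread between the mLJZD libraries. Its call was lost under the DESeq2 Wald test. Of 28 tested genes of actin and tubulin 3 rose and 8 fell, with 4 that fell without control replicate 2 and 5 without control replicate 1. The actin crosslinker Actn1 and the tropomyosin Tpm3 rose from 182 and 178 to 322 and 340 CPM and from 230 and 252 to 423 and 371 CPM, while another tropomyosin, Tpm2, fell from 36.8 and 30 to 17.6 and 19.6 CPM (-0.90, -0.52 and -0.60).

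In the list of checkpoint signalling and repair, headed by ATR, 10 of 33 genes rose and 1 fell, beside 11.2% and 7.66% of all genes. The list is one of long genes, with a median RefSeq transcript of 4770 bases, and 16% of protein-coding genes of 3000 to 5000 bases and 19.7% of those of 5000 to 8000 bases rose. As deposited 24 were called higher, and the list median was 0.63, against 0.26 and 0.17 in the other fits. Atm, the kinase of double-strand break signalling, stood at 11.7 and 15.2 CPM with control serum and 87.6 and 86 CPM with mLJZD serum, with a log2 fold change of 2.64 (SE 0.11) as deposited, 1.61 (SE 0.10) after longest-transcript removal and 1.52 (SE 0.10, edgeR adjusted p = 4.38e-07) after RefSeq-length removal. Atr, the kinase above Chek1, stood at 20.3 and 20.8 against 64.5 and 59.8 CPM (1.54, 0.67 and 0.59), and Clspn, the adaptor through which it reaches Chek1, at 34.2 and 38.8 against 79.8 and 80.5 CPM (1.08, 0.68 and 0.56). Fanci of the Fanconi pathway rose from 10.1 and 10.4 to 29.8 and 26.6 CPM, and Rif1, a regulator of repair choice, from 58.4 and 60.9 to 166 and 171 CPM. Rad1, a subunit of the clamp that helps ATR, was the gene that fell (32.2 and 30.3 against 26.3 and 26.4 CPM), and its call was lost without control replicate 1, mLJZD replicate 1 or mLJZD replicate 2.

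Replication and division genes split by member, and the shares of all genes beside them were 11.2% that rose and 7.66% that fell. The median RefSeq transcripts of the replication and mitosis lists have 3010 and 3384 bases. Of protein-coding genes of 3000 to 5000 bases 16% rose and 8.07% fell. That of the centromere and kinetochore list has 2140 bases, and at 2000 to 3000 bases 7.02% rose and 10.3% fell. In the replication list 8 of 40 rose and 3 fell (5 rose without control replicate 1), and the medians were 0.01, 0.06 and 0.03 in the 3 fits. Pole, the leading-strand polymerase, rose from 55 and 58.2 to 148 and 133 CPM, with a log2 fold change of 0.42 after RefSeq-length removal. Mcm2 of the replicative helicase rose from 255 and 268 to 340 and 327 CPM, while Rfc2 of the clamp loader fell from 129 and 133 to 87.6 and 95 CPM. In the mitosis list 7 of 44 rose and 7 fell, and 4 fell without control replicate 1, control replicate 2 or mLJZD replicate 2. Cdk1, the mitotic kinase, fell from 168 and 155 to 114 and 112 CPM (-0.57, -0.86 and -0.99) and Birc5, survivin, from 145 and 132 to 109 and 96.5 CPM (-0.49, -0.58 and -0.71). Prc1, which bundles the spindle midzone, rose from 76.2 and 80.9 to 133 and 132 CPM. In the centromere and kinetochore list 4 of 36 rose, about the share of all genes, and 7 fell. Beside Cenpm, the centromeric histone Cenpa (146 and 122 against 91.2 and 88 CPM), Cenpw (26.2 and 20.5 against 13.6 and 16.8 CPM), Cenpx (33.7 and 34.9 against 18.4 and 15.6 CPM) and the alphoid-box protein Cenpb (470 and 469 against 368 and 347 CPM) fell, and the Mis12 complex members Mis12 (34.1 and 42.5 against 62.4 and 57.4 CPM) and Dsn1 (26.6 and 30.2 against 41.3 and 43.2 CPM) rose. Groups did not overlap in any gene of this paragraph, which for genes already called gives no further support. With 1 library left out between 4 and 6 members of the centromere list fell and between 1 and 3 rose, the lowest counts being those without control replicate 1, and 2 rose without mLJZD replicate 2. Calls were lost for Cenpa without control replicate 1, for Cenpx without control replicate 2 and without mLJZD replicate 2, and for Mis12 without control replicate 1 and without mLJZD replicate 1.

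Large chromatin and cytoskeletal genes, like most protein-coding genes of their length, were higher as deposited and much less so after removal. Of 31 tested large chromatin regulators 30 were called higher as deposited, with a median of 1.11, and 9 rose in all 3 fits, with a median of 0.14 after RefSeq-length removal (3 without control replicate 2). Atrx, a remodeller of heterochromatin, stood at 51.6 and 50.2 against 161 and 162 CPM (1.60, 0.60 and 0.52), and Srcap, the remodeller that deposits H2A.Z, at 1.96 and 1.58 against 7.88 and 8.11 CPM (2.11, 1.11 and 1.05), with its call lost without control replicate 2. Of 29 giant cytoskeletal and related genes all 29 were called higher as deposited, with a median of 1.52, and 10 rose, with a median of 0.16 after RefSeq-length removal (5 without control replicate 1). Vps13c, a lipid transfer protein, stood at 11.1 and 15.3 against 77.3 and 78.6 CPM (2.51, 1.28 and 1.21), and the ubiquitin ligase Huwe1 at 144 and 164 against 602 and 627 CPM (1.94, 0.54 and 0.45). The median RefSeq transcripts of these 2 lists have 8857 and 12380 bases. Of all protein-coding genes with a RefSeq transcript of 8000 bases and over, 86.3% were called higher as deposited, with a median of 1.05. In that class 22.3% rose. Med12, the kinase-module subunit of Mediator, stood at 13.2 and 15.9 against 75.9 and 80.8 CPM and had a log2 fold change of 2.38 as deposited and 1.66 after RefSeq-length removal. The nuclear RNA Malat1 stood at 28.2 and 34.2 against 113 and 113 CPM (1.80, 1.02 and 0.94).

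Glycolytic and hypoxia-inducible genes fell in 10 of 28 cases and rose in 1, beside 7.66% of all genes that fell. The list median was -0.45 as deposited and -0.23 after RefSeq-length removal. Car9, the carbonic anhydrase of hypoxic cells, stood at 23.6 and 25.3 CPM with control serum and 10.5 and 12.4 CPM with mLJZD serum, with a log2 fold change of -1.15 (SE 0.13) as deposited, -0.76 (SE 0.13) after longest-transcript removal and -0.84 (SE 0.13, edgeR adjusted p = 0.00034) after RefSeq-length removal. Ndrg1, a hypoxia-induced gene, stood at 538 and 556 against 414 and 380 CPM (-0.52, -0.67 and -0.50). The glycolytic enzymes Gpi1 and Ldha fell from 1068 and 1144 to 774 and 784 CPM and from 4466 and 4464 to 2966 and 2809 CPM. Hk2, the hexokinase at the entry of the pathway, went against them, from 96.9 and 108 to 212 and 204 CPM (0.96, 0.54 and 0.44).

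Sterol synthesis genes fell in 5 of 23 cases and 0 rose, beside 7.66% and 11.2% of all genes (3 fell without control replicate 1 or without mLJZD replicate 2). Fdft1, squalene synthase, stood at 25.8 and 23.1 against 16.7 and 17.7 CPM (-0.56, -0.60 and -0.73), and Fdps, which makes farnesyl diphosphate, at 77.9 and 71.5 against 46.3 and 39.2 CPM (-0.87, -0.79 and -0.35), with its call lost without mLJZD replicate 2. Abca1, which exports cholesterol, rose from 4.4 and 3.78 to 18 and 20.2 CPM (2.16, 1.00 and 0.94), and Cpt1a, which admits fatty acids to mitochondria, from 64.2 and 65.7 to 119 and 129 CPM (0.88, 0.70 and 0.57). In their lists, genes of fatty acid oxidation rose in 2 of 15 cases and fell in 1 (Fabp4), and genes of lipid export under LXR rose in 1 of 8 and fell in 1 (Srebf1).

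Of 24 genes of the ATF4 stress response 7 fell and 1 rose, beside 7.66% and 11.2% of all genes (4 fell without control replicate 2, and 0 rose without control replicate 1 or without mLJZD replicate 2). Ddit3, the stress factor CHOP, stood at 219 and 224 against 103 and 106 CPM (-1.14, -0.74 and -0.40), Pck2, mitochondrial phosphoenolpyruvate carboxykinase, at 451 and 443 against 338 and 284 CPM (-0.58, -0.84 and -0.62), and Slc3a2, the heavy chain of amino acid transporters, at 538 and 538 against 391 and 371 CPM (-0.55, -0.38 and -0.48). Of 25 NRF2 targets, by the same shares of all genes, 5 fell and 0 rose (2 rose without mLJZD replicate 2). Among those that fell were Prdx1, a peroxidase, from 652 and 616 to 419 and 442 CPM and Gstm1, a glutathione transferase, from 74.5 and 70.5 to 31.8 and 37.4 CPM. The iron store Fth1 fell from 3759 and 3492 to 2101 and 1959 CPM. Tfrc, the receptor that takes up transferrin iron, rose from 45.4 and 45.5 to 101 and 105 CPM (1.12, 0.67 and 0.55). The metallothioneins Mt1 and Mt2, which bind zinc and copper, fell from 766 and 599 to 277 and 316 CPM and from 152 and 121 to 38.9 and 64 CPM. The call for Mt2 was lost under the DESeq2 Wald test. With the rise of Atp7a, 4 of 22 metal genes rose and 4 fell (2 rose without mLJZD replicate 1), again beside 11.2% and 7.66% of all genes. The median RefSeq transcript of the metal list has 3775 bases, and of protein-coding genes of 3000 to 5000 bases 16% rose and 8.07% fell. In the circadian list 3 of 16 tested genes fell and 1 rose, against the same shares of all genes. The output gene Dbp (8.54 and 8.97 against 1.91 and 2.59 CPM), the repressor Nr1d1 (28.3 and 28.8 against 14.7 and 20.1 CPM) and Ciart (42.3 and 42.9 against 21.4 and 25.1 CPM) fell. Clock rose (64.8 and 77.9 against 174 and 193 CPM), with log2 fold changes of 1.31, 0.31 and 0.40 in the 3 fits. The calls for Nr1d1 and Clock were lost without mLJZD replicate 1 and without control replicate 1 respectively.

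Genes of the ribosome and the respiratory chain fell most often in number among the lists described here. Of 84 cytosolic ribosomal protein genes 38 fell and 0 rose, of 77 mitochondrial ones 19 and 0, and of 74 nuclear genes of the respiratory chain 31 and 0. Their RefSeq transcripts have medians of 795, 1280 and 787 bases. Of protein-coding genes 18.6% fell under 1000 bases and 8.88% at 1000 to 2000 bases, and 7.66% of all genes fell. List medians of -0.82, -0.53 and -0.83 as deposited were -0.23, -0.11 and -0.21 after RefSeq-length removal. Beside them the class under 1000 bases had -0.10. The class of 1000 to 2000 bases, in which the median length of the mitochondrial list lies, had -0.02. Rpsa stood at 3979 and 3703 CPM with control serum and 1864 and 1816 CPM with mLJZD serum, with a log2 fold change of -1.12 (SE 0.08) as deposited, -0.81 (SE 0.06) after longest-transcript removal and -0.90 (SE 0.06, edgeR adjusted p = 4.16e-07) after RefSeq-length removal. Rpl31 stood at 893 and 794 against 251 and 425 CPM, and its mLJZD libraries lay apart from each other. Ribosomal protein genes have many processed pseudogenes, and reads may be split among them. Mrpl57 of the mitochondrial ribosome stood at 71.1 and 66.6 against 26.3 and 30.6 CPM (-1.33, -1.36 and -1.49). Uqcrq of complex III fell from 281 and 233 to 94 and 107 CPM (-1.41, -1.02 and -1.08) and Atp5g1 of the ATP synthase from 86.4 and 75.3 to 47.2 and 47.9 CPM (-0.82, -1.21 and -1.33). Of 28 genes that assemble ribosomes 5 rose, for example Mybbp1a (472 and 522 against 798 and 770 CPM), and 0 fell. With 1 library left out 2 rose without control replicate 2, 3 without control replicate 1 or without mLJZD replicate 1, and 8 without mLJZD replicate 2. The median RefSeq transcript of that list has 3062 bases. Of protein-coding genes of 3000 to 5000 bases 16% rose and 8.07% fell, and of all genes 11.2% rose and 7.66% fell. Of 12 mitochondrially encoded genes 3 fell and 1 rose, and with 1 library left out 7 fell (without control replicate 1), 1 (without control replicate 2 or without mLJZD replicate 1) or 9 (without mLJZD replicate 2, when 0 rose): mt-Nd4, a subunit of complex I, stood at 698 and 754 against 227 and 641 CPM, with its call lost without control replicate 2 and without mLJZD replicate 1.

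**Figure D5:**
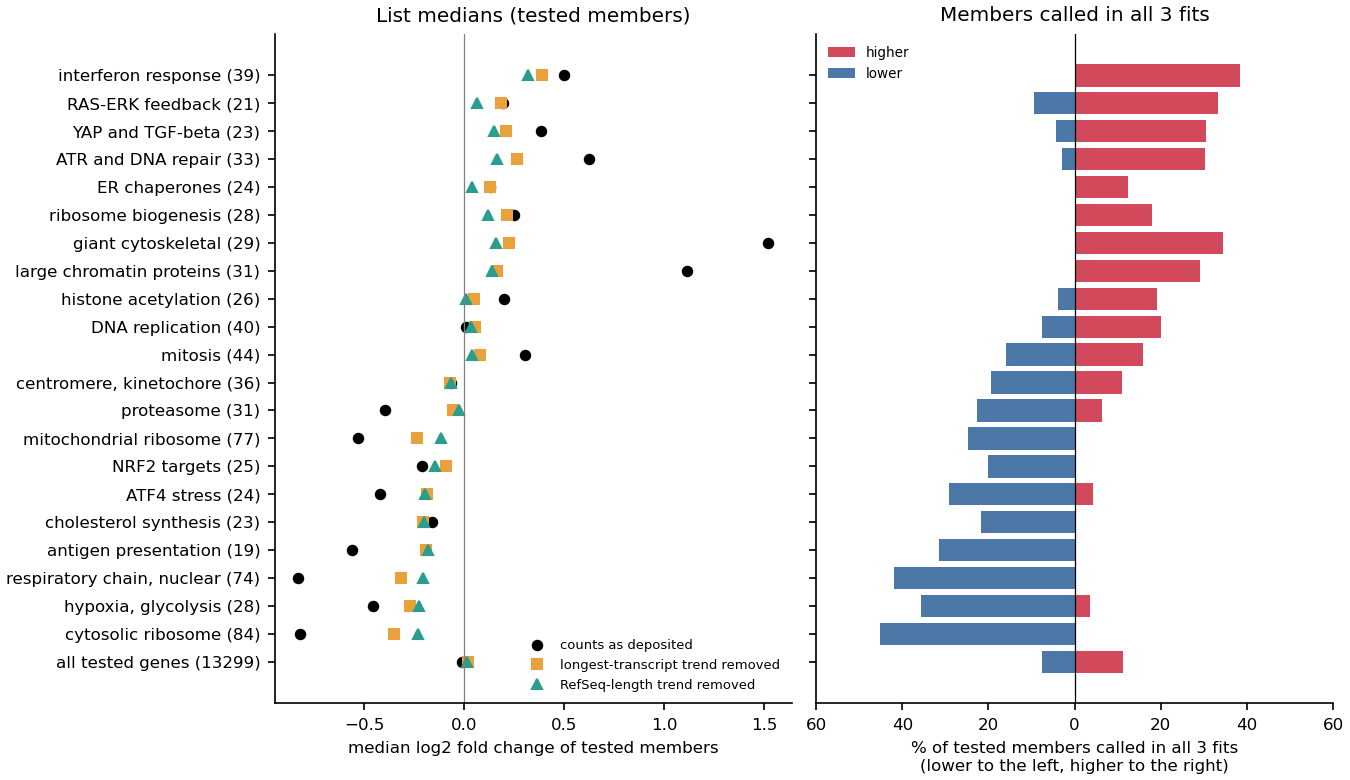
Median log2 fold change of the tested members of 21 lists and of all tested genes in the 3 fits (left, number tested in brackets) and percent of members called in all 3 fits (right, lower to the left and higher to the right of 0). Medians of lists of long genes, such as the giant cytoskeletal one, move from 1.52 to 0.16 when the trend is removed; the interferon list keeps 0.32 and the cytosolic ribosome list -0.23.

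Among gene classes other than protein-coding ones, several had more genes called higher than lower as deposited. Of 171 genes of the class TEC, unspliced models that await experimental confirmation, 68 were called higher and 7 lower as deposited (median 0.76). Of 23 sense-intronic genes 8 were called higher and 0 lower (median 0.96). The shares over all genes were 28.8% higher and 26.6% lower. Unprocessed pseudogenes were called higher in 8 of 41 cases and lower in 2 (median 0.35), both below the shares of all genes. TEC and sense-intronic genes lie within or beside other genes, and without strand their reads cannot be told apart from those of their neighbours. Processed pseudogenes were called lower in 177 of 779 cases and higher in 76 as deposited. After longest-transcript removal they were called lower in 44 and higher in 148, beside 18% and 19.6% of all genes in that fit.

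Markers of lymphoid and endothelial cells were at or near 0 in the cultures, while the myeloid markers Cd14 and Cd68 were not. Of 12 lymphoid markers 10 had no count in any culture library, and the summed level of the list ran from 0.0489 to 0.225 CPM. Summed endothelial, muscle and erythroid or liver markers stayed below 3 CPM in each library. Myeloid markers summed to between 33.5 and 36.7 CPM with control serum and between 27.2 and 28.1 CPM with mLJZD serum. Most of that was Cd14 (26.5 and 26.4 against 21.8 and 19.6 CPM) and Cd68 (9.18 and 6.67 against 5.53 and 6.91 CPM). All sums given here are of counts as deposited and still hold the length trend. Epithelial markers summed to between 265 and 282 CPM with control serum and between 486 and 503 CPM with mLJZD serum, with Krt20 and the junction protein Tjp1 (94.1 and 89.8 against 246 and 265 CPM) as the main members, beside Krt18. Of its 6 tested members these 2 rose and 1 fell, Krt19, from 1.62 and 1.31 to 0.147 and 0.375 CPM (-2.45, -1.83 and -1.87), a call lost without either control library or without mLJZD replicate 1, and the list median was -0.35 as deposited. Epcam, Cldn4, Lgr5 and Cdx1 had no count in any of the 4 libraries and Cdh1 stood below 0.1 CPM in each. Fibroblast markers summed to between 1862 and 1998 CPM with control serum and between 1858 and 2194 CPM with mLJZD serum, with most of that sum in the collagen gene Col1a2 and no count of Lum or Thy1.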

How the data were processed

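RNA was sequenced from 8 libraries, 4 of them CT26 cultures. The authors deposited 1 table of read counts per gene, and the submitters' processing notes name featureCounts 2.0.3, the aligner HISAT2 2.2.1, SAMtools 1.14, FastQC 0.12.1, Trim Galore and the build GRCm39. For annotation release, strand setting and multi-mapping reads, nothing is given in the sources used here. Of 56953 identifiers 52029 matched GENCODE M21 (GRCm38), used for names, classes, lengths and GC content only, and 4924 did not.

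The 4 culture libraries were fitted with edgeR 4.0.16 (quasi-likelihood F test, TMM scaling, filterByExpr, Benjamini-Hochberg adjustment over all genes tested) in R 4.3.3. SEs were taken from the F statistic. CPM are counts relative to a library's total. Each library's trend in log2 length and GC content was estimated over the tested genes with a known length (mgcv 1.9.3, prior count 2, outlying genes trimmed) and entered as an offset. That was done for the longest transcript and, chosen after seeing the data, for the RefSeq-matched one. The scripts were tested on simulated data. With 2 libraries against 2 an exact two-sided permutation test cannot give a p below 0.333, so single genes rest on the model. Replicate numbers did not pair the cultures.

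The comparison and the gene lists were chosen with earlier results of these data known. Genes were named by a rule: Chek1 and Cenpm, the 12 largest changes per direction, those against the length trend, and up to 4 members per list called in the first 2 fits. The sets against the trend and all other members named were chosen after their values were seen. Alternatives were other scalings, no filter, DESeq2 1.42.0, all 8 libraries, other length measures and each library left out. Some members of the lists are not reported here by name.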

Additional observations from a re-analysis of the deposited data

How the results depend on the processing

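Each value rests on 2 libraries per serum of 20439449 to 29363861 counts, and genes at a few CPM are the least precise. Under each alternative run the counts of called genes over the whole table, both directions together, stayed within 1.5 times those reported. Counts of 1 direction moved further. The 1004 genes lower in all 3 fits became 1880 without a filter on low counts and 1756 with all 8 libraries in 1 fit. In all 3 fits between 1713 and 2096 genes were called with 1 library left out, 1918 with DESeq2, 3413 with all 8 libraries in 1 fit and 3592 without a filter on low counts, where 47.7% were higher against 59.4% as reported. The leave-one-out ranges were 6358 to 6889 genes as deposited, 3579 to 4341 after longest-transcript removal and 2595 to 3097 in these 2 fits together. Upper-quartile scaling moved the median of all genes from -0.01 to -0.12 and the share of higher calls as deposited from 51.9% to 42%. With the trend in median transcript length removed instead, 6195 genes were called. They kept 3511 of the 4922 calls made after longest-transcript removal. Of 137 named genes called in all 3 fits, 104 kept that call under all 11 alternatives. Under the DESeq2 Wald test it was lost for Cd74, Cenpx, Col1a1, Fam53a, Gbp2, Gbp3 and Hdac7. The same test lost it for Krt19, Lgals1, Mt2, Rad1, Tap1, Tgfbi and mt-Nd4. With library totals only it was lost for Rad1 and Srebf2, and with upper-quartile scaling for Kat2a.

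Same-numbered cultures did not deviate together (correlation 0.0226 across genes), so the numbers only name libraries. With the replicate block 7343 genes were called as deposited, 5302 after longest-transcript removal, 3744 in both and 2687 in all 3 fits.

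The length classes kept their order with median transcript length, with medians of -0.21, -0.10, 0.16 (the class of 2000 to 3000 bases, which thereby turned positive), 0.42 and 0.76 from the shortest class up to 8000 bases. Between single pairs of libraries, medians that lay outside the spread were -0.53 and -0.44 (1000 to 2000 bases), -0.19 and -0.20 (2000 to 3000), 0.14 (3000 to 5000), 0.62 and 0.54 (5000 to 8000) and 0.93 (8000 and over). With 1 library left out, Isg15 as deposited ran from -0.27 to 0.00050, and Snrpc after RefSeq-length removal from -0.126 to 0.0302. The cause was not tested in any of these cases.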
